A study of Mus musculus with 6 samples.

Results

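The genes described here are 10 members of the STAT3 and acute-phase response, Stat3, Socs3, Osmr, Il6st, Il4ra, Lrg1, Saa3, Serpina3n, Lcn2 and Cebpd, out of 22180 genes with a probe set on the array. Each was represented by the probe set that the platform annotation gives to that gene symbol alone and, where a gene had several, by the one with the highest mean over the 6 arrays. Only Socs3 had 2 such probe sets. All 10 had a mean over the 6 arrays above background, as did 15284 of the 22180 genes, which were tested. The members were chosen with earlier results of these data known.

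The arrays measured RNA from blood endothelial cells sorted from the intestine of adult mice on a mixed C57BL/6 x 129 background, with 3 knockout and 3 control arrays, each from a separate biological replicate. Knockout mice carried floxed Apc and the tamoxifen-inducible Villin-CreERT2 (Apcfl//fl; Villin-CreERT2), so that Apc, a brake on Wnt signalling, is deleted in the epithelium, where the villin promoter is active, and not in the endothelium that was measured. Control mice (WT, Apcfl//fl) carried floxed Apc, and no Cre is named for them. Both groups received subcutaneous tamoxifen daily for 5 days, the intestine was taken on day 6, and single live cells were sorted as CD31-positive and negative for CD45, EpCAM and gp38.

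Interleukin-6, leukaemia inhibitory factor, oncostatin M and their relatives bind receptors that share the chain gp130, encoded by Il6st. Janus kinases attached to these receptors phosphorylate STAT3, which enters the nucleus and switches on genes that include its own inhibitor Socs3 and the transcription factor gene Cebpd. STAT3 and C/EBP factors together drive acute-phase proteins, which are secreted in inflammation mainly by the liver but also by endothelium and epithelium. The comparison asked whether endothelial cells next to Apc-deficient epithelium carried a changed level of these transcripts.

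The promoters of the 4 members that passed the test, and of Socs3, which had the lowest change of the 10, are shown because the secreted acute-phase proteins and the receptor and signalling genes differ in sequence there. Each is the window of 250 bases before the RefSeq start of the gene in GRCm38.p6, read 5′ to 3′ on the strand of the gene, with matches to the STAT motif TTCNNNGAA or the C/EBP motif TTGCNNAA in capitals. The windows are chr7:46715677-46715926 on the minus strand for Saa3, chr12:104406458-104406707 on the plus strand for Serpina3n, chr17:56121947-56122196 on the minus strand for Lrg1, chr7:125552021-125552270 on the plus strand for Il4ra and chr11:117969367-117969616 on the minus strand for Socs3.
Saa3: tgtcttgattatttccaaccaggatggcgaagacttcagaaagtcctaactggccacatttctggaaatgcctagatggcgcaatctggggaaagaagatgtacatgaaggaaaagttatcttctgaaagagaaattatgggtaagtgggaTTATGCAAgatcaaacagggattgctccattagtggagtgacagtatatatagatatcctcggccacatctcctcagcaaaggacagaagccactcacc
Serpina3n: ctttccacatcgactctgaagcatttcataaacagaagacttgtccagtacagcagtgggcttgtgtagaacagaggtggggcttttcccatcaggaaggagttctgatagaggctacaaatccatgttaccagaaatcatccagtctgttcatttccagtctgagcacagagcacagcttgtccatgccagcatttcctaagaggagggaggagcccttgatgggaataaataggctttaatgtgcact
Lrg1: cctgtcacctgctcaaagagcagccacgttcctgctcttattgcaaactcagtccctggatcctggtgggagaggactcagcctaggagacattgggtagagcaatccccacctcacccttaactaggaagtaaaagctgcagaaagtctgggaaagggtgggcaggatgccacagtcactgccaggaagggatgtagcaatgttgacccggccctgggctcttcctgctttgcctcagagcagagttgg
Il4ra: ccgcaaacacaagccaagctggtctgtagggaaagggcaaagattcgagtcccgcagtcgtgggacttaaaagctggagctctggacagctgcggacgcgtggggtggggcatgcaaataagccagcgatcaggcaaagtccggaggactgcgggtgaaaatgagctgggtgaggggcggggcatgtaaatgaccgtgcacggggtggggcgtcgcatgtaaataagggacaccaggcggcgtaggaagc
Socs3: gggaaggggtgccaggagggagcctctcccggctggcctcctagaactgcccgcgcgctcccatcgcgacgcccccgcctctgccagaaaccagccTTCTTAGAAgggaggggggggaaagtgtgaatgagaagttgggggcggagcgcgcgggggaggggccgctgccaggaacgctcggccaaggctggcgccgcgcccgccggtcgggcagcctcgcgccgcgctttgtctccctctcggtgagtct

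RefSeq windows were matched for 9 of the 10 members. Both strands were searched, and the STAT motif reads the same on both. It was found in 1 of the 9, Socs3, from 154 to 146 bases before the start, and in 7.02% of all 32851 promoter windows. The stricter form TTCCNGGAA, every match of which is also a match to TTCNNNGAA, was in 0 of the 9 and in 0.913% of all windows. The C/EBP motif was found in 2 of the 9, in Saa3 from 99 to 92 bases before the start, on the strand opposite to the gene, and in Lcn2 from 216 to 209 bases before it, against 9.56% of all windows. A match describes letters in the window and does not show binding.

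The windows differed in base composition. The 4 secreted proteins had few CpG dinucleotides, with 1 in Serpina3n, 2 in Lrg1 and 3 each in Saa3 and Lcn2. The signalling genes had 13 in Stat3, 17 in Il4ra, 18 in Osmr and 26 each in Socs3 and Il6st. Over all windows the median was 6 CpG, with quartiles of 2 and 16, and 44.4% held fewer than 5. Il4ra, which passed the test, thus shared its CpG-rich window with the signalling genes that did not.

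Levels are log2 values after RMA, so that a difference of 1 is a 2-fold difference, and n is 3 in each group. Changes are knockout minus control, with the standard error of the limma fit after ±, and 95% intervals are from the same fit and not adjusted for the number of genes. The background level was a log2 value of 4.12. It is the 90th percentile of the means of 1428 genes for receptors of smell, taste and pheromones, taken as silent in these cells. Endothelial markers were high in both groups, with array means of 12 markers between 10.54 and 10.64 in the knockout and between 10.56 and 10.70 in the control. Of these 12, the tight junction gene Cldn5 was lower (-1.28) and 0 were higher at an adjusted p of 0.05. Kdr (0.28), Egfl7 (0.35), Plvap (0.25) and Esam (0.21) had every knockout array above every control but did not pass. Emcn (-0.087) had every knockout array below and did not pass either. Over all genes tested, 9.79% had every knockout array above and 12.3% below. Enterocyte transcripts were present on the control arrays and lower in the knockout for 10 of 16 genes, with array means of 5.27 to 5.63 in the knockout and of 6.59, 8.48 and 7.93 in controls 1, 2 and 3. Mural transcripts were lower for 6 of 11 genes, with array means of 7.69 to 8.03 against 8.43 to 8.71. Of 6 lymphatic endothelial genes, 2 were higher, Lyve1 and Flt4. In RNA from many cells, fewer cells of a type and less RNA per cell cannot be told apart.

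Of the 10 members, 4 rose in the knockout and 6 did not pass an adjusted p of 0.05. The 4 were Saa3, an inflammation-induced serum amyloid A, Serpina3n, a secreted inhibitor of serine proteases, Lrg1, a secreted leucine-rich glycoprotein that promotes vessel growth, and Il4ra, the shared receptor chain for interleukin-4 and interleukin-13. Over all genes tested, 2.61% passed in either direction and 1.13% passed as higher. The groups did not overlap for 8 of the 10, with the knockout above in 5 and below in 3, against 22.1% of all genes, 9.79% with the knockout above and 12.3% below. The median change was 0.30 over the members and -0.017 over all genes. Since the members were chosen with results known, these shares describe the list and do not test it.

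The count of 4 fell when single arrays were left out. It was 3 without control 1 and 1 without each of knockout 1, knockout 2, knockout 3, control 2 and control 3. Over all genes tested the number passing fell as well, from 399 to 379 without control 1. It lay between 91 and 217 without any other single array. The count of members was also 1 without the mean-variance trend, where 139 of all genes passed. Against control 1 alone, the control with the least enterocyte RNA, 0 members passed in limma and 6 had an unadjusted p under 0.05, against 11.1% of all genes in that setting. The lone control was assumed to vary like the knockout arrays.

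**Figure D1:**
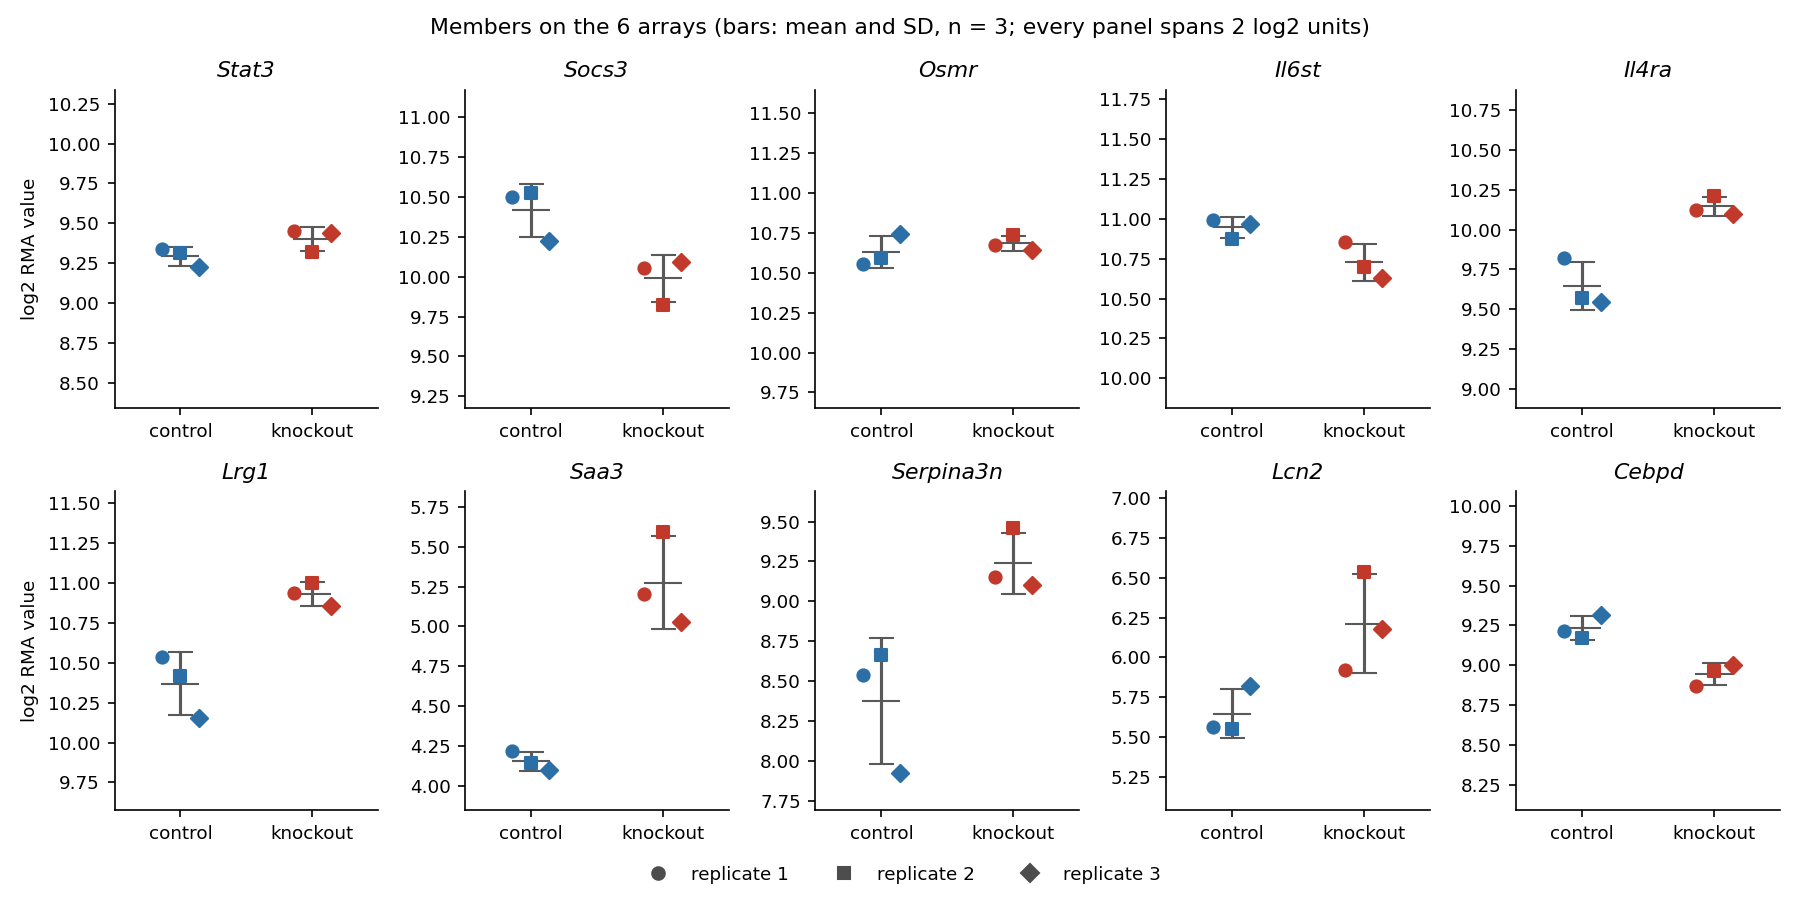
Log2 RMA value (vertical axis, 2 log2 units in every panel) of each of the 10 members on the 3 control arrays (blue) and 3 knockout arrays (red). Symbols mark the replicate, and bars the mean and SD of each group (n = 3). Saa3 shows the widest gap, its knockout arrays at 5.03 to 5.60 and its controls at 4.10 to 4.22, while the groups overlap for Stat3 and Osmr.

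The secreted proteins held 3 of the 4 members that passed. Saa3 was at 5.20, 5.60 and 5.03 on knockout arrays 1, 2 and 3 and at 4.22, 4.14 and 4.10 on control arrays 1, 2 and 3. The knockout arrays all lay above background, while the controls lay next to it, control 3 below. Saa3 rose by 1.12 ± 0.17 (2.18-fold, adjusted p = 0.0131 in limma), the 41st largest rise among the genes tested. With control 3 raised to the background level the change was 2.17-fold. The call ended without control 3 (adjusted p = 0.0594). With control 1 as the only control the change was 1.06 (adjusted p = 0.207), and Saa3 was not tested under the stricter background level, where it lay below it.

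Serpina3n was at 9.15, 9.46 and 9.11 on the knockout arrays and at 8.54, 8.66 and 7.92 on the control arrays. Control 3 stood lowest, and every knockout array was above every control. The gene rose by 0.86 ± 0.19 (1.82-fold, adjusted p = 0.0482 in limma), close to the threshold. Its SD was 0.40 in the controls and 0.19 in the knockout. The call ended without any 1 of the 6 arrays, with adjusted p-values from 0.0509 without control 2 to 0.125 without knockout 2, and changes from 0.64 without control 3 to 1.01 without control 2. Against control 1 alone the change was 0.70 (adjusted p = 0.175).

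Lrg1 was at 10.94, 11.00 and 10.86 on the knockout arrays and at 10.54, 10.42 and 10.15 on the control arrays. The knockout arrays lay close together, with an SD of 0.073, and all above the controls, whose SD was 0.20. Lrg1 rose by 0.56 ± 0.097 (1.48-fold, adjusted p = 0.0227 in limma). The call ended without knockout 1 (adjusted p = 0.0695), knockout 2 (0.0725), knockout 3 (0.0655) or control 2 (0.0542). Against control 1 alone the change was 0.39 (adjusted p = 0.175).

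Lcn2 encodes lipocalin 2, which withholds iron from bacteria by binding their siderophores. It was at 5.92, 6.53 and 6.18 on the knockout arrays and at 5.57, 5.55 and 5.82 on the control arrays. Every knockout array was above every control, but by only 0.097 between knockout 1 and control 3. The change was 0.57 ± 0.18 (95% interval 0.16 to 0.97, adjusted p = 0.155), and it did not pass. Thus Lcn2 had a change of the same size as Lrg1 with a wider error.

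Neutrophils and macrophages also make several of these proteins, and their markers were read beside them. Of 12 neutrophil genes, 6 had both group means below background, Ly6g, Mpo, Ngp, Camp, Mmp8 and Csf3r, and 0 of the 4 tested passed in limma, with 0 at an unadjusted p of 0.05. The array means of the neutrophil list were 3.83 to 4.06 in the knockout and 3.72 to 3.92 in the control. Of 9 macrophage genes, 0 passed and 1, Cd14 (0.49), had an unadjusted p under 0.05 in limma. A positive change was seen in 7 of the 9, with a median of 0.18. Their array means were 5.69 to 6.10 in the knockout and 5.60 to 5.89 in the control. S100a8, a neutrophil calprotectin gene, was at 5.52 on knockout 2 and below background on the other 5 arrays, and its partner S100a9 was above background on 2 knockout arrays and 1 control. Knockout 2 was also the highest array for Saa3, Serpina3n, Lrg1 and Il4ra and for Lcn2. Without it their changes were 0.96, 0.75, 0.53, 0.47 and 0.40.

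Other cell type lists moved in both directions beside the 4 rises. Lymphatic endothelial genes moved the same way, with a positive change in 5 of 6, against 7135 of all 15284 genes tested. Their array means were 5.72 to 6.33 in the knockout and 5.47 to 5.85 in the control. Among them Lyve1 rose by 1.13 (adjusted p = 0.0406 in limma) and Flt4 by 0.65 (adjusted p = 0.0104). Prox1, the defining lymphatic transcription factor gene, was near background at 4.42 and 4.37. Reln (0.18) and Mmrn1 (0.32) did not pass, and neither did Pdpn, which had a negative change (-0.30). Pdpn encodes gp38, for which the cells were sorted as negative. The same holds for Epcam in the enterocyte list and Ptprc, for CD45, in the macrophage list. Enterocyte and mural transcripts moved the opposite way to the 4 rises. Of 4 tested B and plasma cell genes, 2 had a positive change, Ighm (0.53) and Jchain (0.41), and 0 passed. Cd79a (-0.034) and Cd79b (-0.21) had negative changes. The part of neutrophil, macrophage, lymphatic or other RNA in the rises was not tested.

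Of the 3 receptor chains, 1 passed the test. Il4ra was at 10.12, 10.21 and 10.10 on the knockout arrays and at 9.82, 9.57 and 9.55 on the control arrays. The knockout arrays were all higher, and control 1 was the nearest to them. Il4ra rose by 0.50 ± 0.087 (1.41-fold, adjusted p = 0.0237 in limma). The call ended without knockout 1 (adjusted p = 0.0661), knockout 2 (0.0729), knockout 3 (0.0767), control 2 (0.0775) or control 3 (0.0880). Against control 1 alone the change was 0.33 (adjusted p = 0.305).

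Il6st, the signal-transducing chain shared by the interleukin-6 family, was at 10.86, 10.70 and 10.63 on the knockout arrays and at 10.99, 10.87 and 10.97 on the control arrays. All knockout arrays lay below all controls, though knockout 1 and control 2 differed by only 0.018. The change was -0.22 ± 0.072 (95% interval -0.38 to -0.057, adjusted p = 0.164) and did not pass. Osmr, the chain that pairs with gp130 to bind oncostatin M, was at 10.68, 10.73 and 10.65 on the knockout arrays and at 10.56, 10.59 and 10.74 on the controls. The groups overlapped, with a change of 0.054 ± 0.067 (95% interval -0.096 to 0.20, adjusted p = 0.745).

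Stat3 itself was at 9.45, 9.32 and 9.44 on the knockout arrays and at 9.34, 9.31 and 9.23 on the control arrays. The groups overlapped, and the change was 0.11 ± 0.077 (95% interval -0.064 to 0.29, adjusted p = 0.539). The array measures transcript level and not the phosphorylation by which STAT3 is activated.

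Socs3, the feedback inhibitor that STAT3 induces, was at 10.06, 9.82 and 10.09 on the knockout arrays and at 10.50, 10.53 and 10.22 on the control arrays. All knockout arrays lay below all controls. The change was -0.43 ± 0.10 (95% interval -0.66 to -0.19) and did not pass (adjusted p = 0.069). The other Socs3 probe set had a change of -0.15 and overlapping groups, at 8.78, 8.66 and 8.92 in the knockout and 9.01, 8.95 and 8.84 in the control. With the mean of both probe sets the change was -0.29 (adjusted p = 0.178).

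Cebpd, the C/EBP transcription factor induced in the acute phase, was at 8.87, 8.97 and 9.002 on the knockout arrays and at 9.22, 9.17 and 9.31 on the control arrays. The groups did not overlap, and both had an SD near 0.07 (0.068 and 0.073). The change was -0.29 ± 0.081 (95% interval -0.47 to -0.10, adjusted p = 0.112) and did not pass. Socs3 and Cebpd, both direct targets of STAT3 in other tissues, had negative changes that did not pass, while the secreted members had positive ones. This contrast is limited to the members. Of the 14 acute-phase proteins tested outside them, 6 had a positive change, with a median of -0.019. The 25 further STAT3 target genes tested had a positive change in 13, with a median of 0.013. Mural and enterocyte transcripts moved the same way as Socs3, Cebpd and Il6st, with 1 of 11 mural changes positive (Abcc9, 0.49) and 0 of 16 enterocyte changes. So did those of secretory epithelium, with 0 of 11 changes positive and 2 genes, Reg3b and Reg3g, lower (array means of 5.12 to 5.49 against 5.79 to 7.68). All 6 tested T and NK cell genes had a negative change too, with 0 past the test in limma and 4 at an unadjusted p of 0.05 (array means of 4.36 to 4.71 against 4.85 to 5.49). Of 7 tested fibroblast genes, 1 had a positive change and 1, Col1a2, was lower (array means of 5.60 to 6.01 against 5.96 to 6.38). Of 3 enteric glia genes, 0 had a positive change and 0 passed. The part of these cells in the values was not tested.

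**Figure D2:**
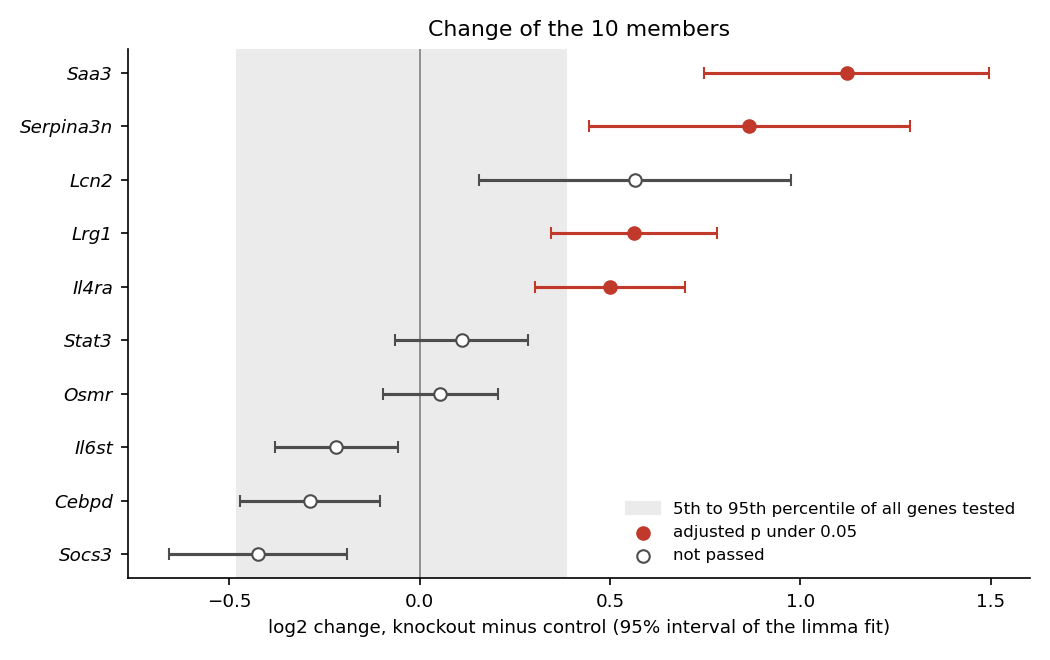
Log2 change of each member, knockout minus control (horizontal axis), with its 95% interval from the limma fit. Filled red points passed an adjusted p of 0.05, open points did not, and the grey band spans the 5th to 95th percentile of the changes of all genes tested (-0.48 to 0.39). Saa3, Serpina3n, Lrg1 and Il4ra are the filled points, and Lcn2 lies beside Lrg1 with a wider interval.

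Few of the other pathway genes passed the test. Outside the members, 121 genes were listed by role, of which 82 were above background, 26 were below it and 13 had no probe set of a single symbol. Of the 82, 3 rose, 2 fell and 77 did not pass, which is 6.10% called against 2.61% of all genes, and their median change was -0.025. Since these lists too were chosen with earlier results of these data known, the shares describe them and do not test them. The 5 genes called were Socs5, Timp1 and Mt2, which were higher, and Lifr and Steap4, which were lower. Without knockout 2, knockout 3 or control 3 the count was 3, and without the variance trend it was 3. Against control 1 alone it was 1, none of the 5: the chemokine gene Cxcl1, at -1.83 (adjusted p = 0.0383).

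At an unadjusted p of 0.05, 16.4% of all genes tested passed, and the counts at that level below are read against it. Of the ligands, 8 of 15 were above background, and 0 passed in limma, with 0 at an unadjusted p of 0.05. Il6, for interleukin-6, was at 6.33, 5.93 and 6.41 on the knockout arrays and at 6.52, 5.58 and 5.48 on the control arrays. Control 1 was the highest of the 6 and the groups overlapped, with a change of 0.36 ± 0.27 (adjusted p = 0.564). Ctf1, for cardiotrophin 1, had the smallest p of the list, with a change of -0.27 ± 0.14 (adjusted p = 0.376), and Lif, for leukaemia inhibitory factor, was at 0.15 ± 0.15 (adjusted p = 0.685).

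Among 12 receptors and kinases above background, 1 fell and 0 rose, and 4 had an unadjusted p under 0.05. Lifr, the receptor chain that pairs with gp130 to bind leukaemia inhibitory factor, was at 10.44, 10.04 and 10.13 on the knockout arrays and at 10.82, 10.88 and 11.22 on the control arrays. All knockout arrays lay below all controls. Lifr fell by 0.77 ± 0.13 on the log2 scale (adjusted p = 0.0196 in limma), a call that ended without knockout 2 (adjusted p = 0.0641), knockout 3 (0.0855) or control 3 (0.0598) and against control 1 alone (-0.61, adjusted p = 0.207). Il10rb, a chain of the interleukin-10 and interleukin-22 receptors, was at -0.76 ± 0.19 (adjusted p = 0.0683), and the kinase gene Jak2 was at 0.44 ± 0.12 (adjusted p = 0.102), with the knockout arrays all above the controls. Jak1 was at 0.11 ± 0.075 (adjusted p = 0.518).

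Other STAT and C/EBP factors gave 0 calls among 8 genes in limma, with 0 at an unadjusted p of 0.05. Cebpa was at -0.34 ± 0.16 (adjusted p = 0.342), and Cebpb, which shares targets with Cebpd, was at 0.37 ± 0.20 (adjusted p = 0.407), with overlapping groups. Of 15 inhibitors above background, 1 rose and 0 fell. Socs5, a relative of Socs3 described as an inhibitor of interleukin-4 and epidermal growth factor signalling, was at 7.97, 8.04 and 7.98 on the knockout arrays and at 7.05, 7.24 and 7.11 on the control arrays. The groups were far apart relative to their spread, and Socs5 rose by 0.86 ± 0.10 (1.82-fold, adjusted p = 0.0063 in limma). The call held without each of the 6 arrays (adjusted p from 0.00968 to 0.0402) and was lost against control 1 alone (0.94, adjusted p = 0.0757). Socs1 was at -0.41 ± 0.16 (adjusted p = 0.245) and the phosphatase gene Ptpn2 at 0.37 ± 0.13 (adjusted p = 0.204).

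Of 25 further STAT3 target genes above background, 1 rose, 0 fell and 24 did not pass, and 9 had an unadjusted p under 0.05. Timp1, an inhibitor of matrix metalloproteinases, was at 7.22, 7.21 and 7.62 on the knockout arrays and at 5.83, 5.99 and 5.24 on the control arrays. Every knockout array lay above every control. Timp1 rose by 1.66 ± 0.21 (3.17-fold, adjusted p = 0.0079 in limma), held without each of the 6 arrays and was lost against control 1 alone (1.52, adjusted p = 0.0587). The others went both ways. Junb, an immediate early transcription factor gene, was at -0.42 ± 0.11 (adjusted p = 0.078), Gadd45g, a stress-response gene, at -0.39 ± 0.092 (adjusted p = 0.0642), and Ccnd1, for cyclin D1, at 0.51 ± 0.12 (adjusted p = 0.0545). Bcl3 was at 0.057 ± 0.10 (adjusted p = 0.83) and Pim1 at -0.18 ± 0.15 (adjusted p = 0.607).

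Of the acute-phase proteins, 30 of 37 listed genes had a probe set of their own, and 14 of the 30 were above background. Of the 14, 1 rose and 1 fell. Mt2, a metal-binding metallothionein, was at 8.79, 10.45 and 9.84 on the knockout arrays and at 7.73, 7.99 and 8.17 on the control arrays. Every knockout array was higher, knockout 2 the most. Mt2 rose by 1.73 ± 0.34 (3.32-fold, adjusted p = 0.0368 in limma), and the call ended without knockout 2 (adjusted p = 0.0689), knockout 3 (0.136), control 1 (0.0773), control 2 (0.0992) or control 3 (0.0980), and with robust eBayes (0.132). With control 1 as the only control the change was 1.96 (adjusted p = 0.224).

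Steap4, a metalloreductase gene induced in inflammation, was at 5.61, 5.32 and 5.40 on the knockout arrays and at 6.49, 6.38 and 6.58 on the control arrays. It fell by 1.04 ± 0.14 on the log2 scale (adjusted p = 0.00947 in limma), with adjusted p-values up to 0.0491 without single arrays and of 0.142 against control 1 alone. Mural transcripts moved the same way as Steap4 and Lifr, and their part in these falls was not tested. Among relatives of the serum amyloid Saa3, Saa2 was below background in both groups (3.07 and 3.33), as was Saa4 (3.06 and 3.01). The complement gene C4b was at -0.55 ± 0.14 (adjusted p = 0.0761), haptoglobin, encoded by Hp, at -0.23 ± 0.14 (adjusted p = 0.474), and Lbp, for the lipopolysaccharide-binding protein, at -0.057 ± 0.18 (adjusted p = 0.915).

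**Figure D3:**
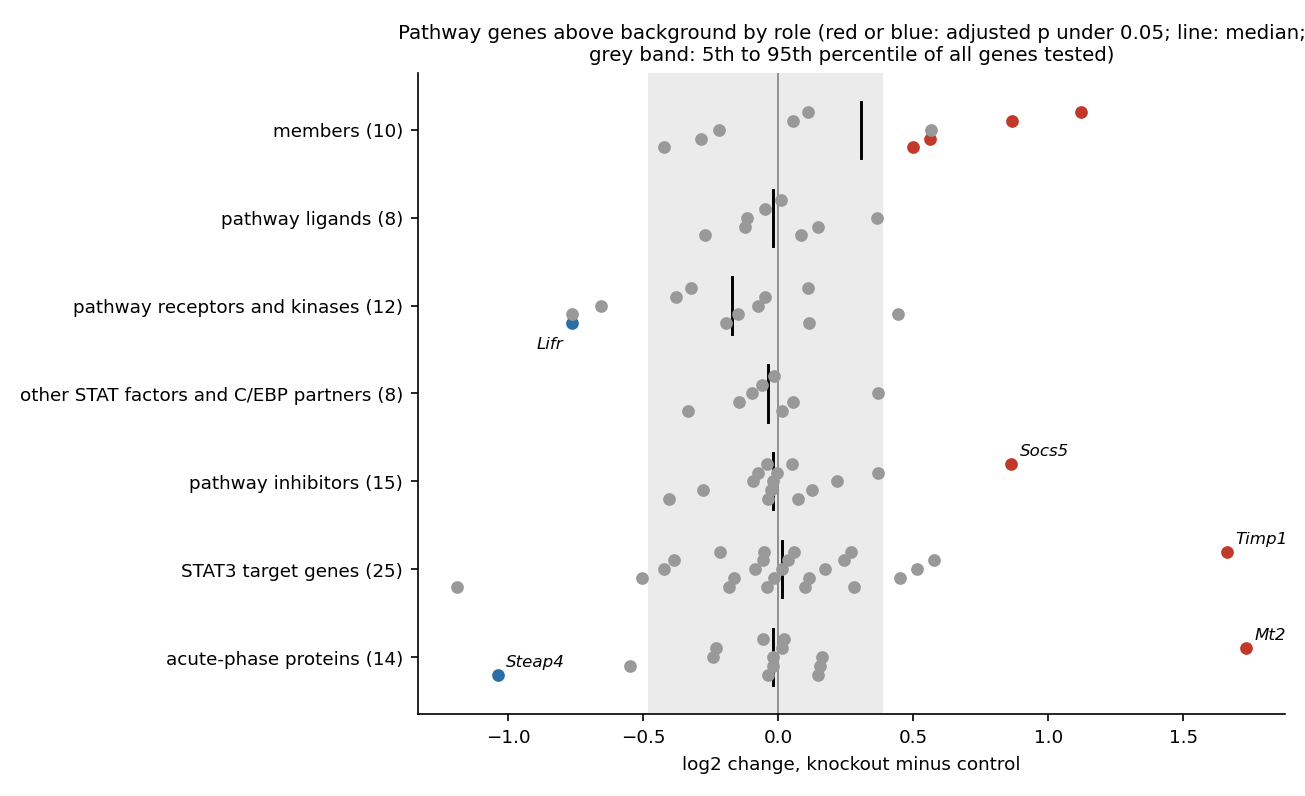
Log2 change, knockout minus control (horizontal axis), of the members and of the other pathway genes above background, by role, with the number of genes in brackets. Red and blue points passed an adjusted p of 0.05 as higher and lower, black lines are list medians, and the grey band spans the 5th to 95th percentile of all genes tested (-0.48 to 0.39). Outside the members, 5 of 82 genes are coloured, with Mt2 (1.73) and Timp1 (1.66) farthest to the right.

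The array profiles of the 4 members that passed were compared with those of all other genes tested by Pearson's correlation over the 6 arrays, as a description. The closest to Il4ra were Dbn1 (r = 0.999), Slc2a1 (0.993) and Unk (0.988). Those closest to Lrg1 were Gab2 (0.996), Nucb1 (0.995) and Inafm2 (0.994). For Saa3 they were Alkbh5 (0.996), Nckipsd (0.995) and Fscn1 (0.995), and for Serpina3n Capg (0.994), Cstf3 (0.990) and Arhgef7 (0.989). All 12 had a positive change, from 0.18 for Cstf3 to 0.78 for Capg, and Slc2a1 (0.48, adjusted p = 0.0272), Inafm2 (0.59, adjusted p = 0.0484) and Nckipsd (0.58, adjusted p = 0.04999) passed the test. These correlations include the difference between the groups, which the named genes share with the members.

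With each array left out in turn, changes ranged from 0.96 to 1.24 for Saa3, from 0.45 to 0.65 for Lrg1, from 0.45 to 0.59 for Il4ra and from 0.40 to 0.71 for Lcn2. They ranged from -0.52 to -0.34 for Socs3, from -0.28 to -0.17 for Il6st and from -0.32 to -0.25 for Cebpd. All 10 members kept the sign of their change in these settings and against control 1 alone, while the number past the threshold varied as given above. For the members whose groups did not overlap, all but Stat3 and Osmr, leaving out arrays could not change the sign.

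**Figure D4:**
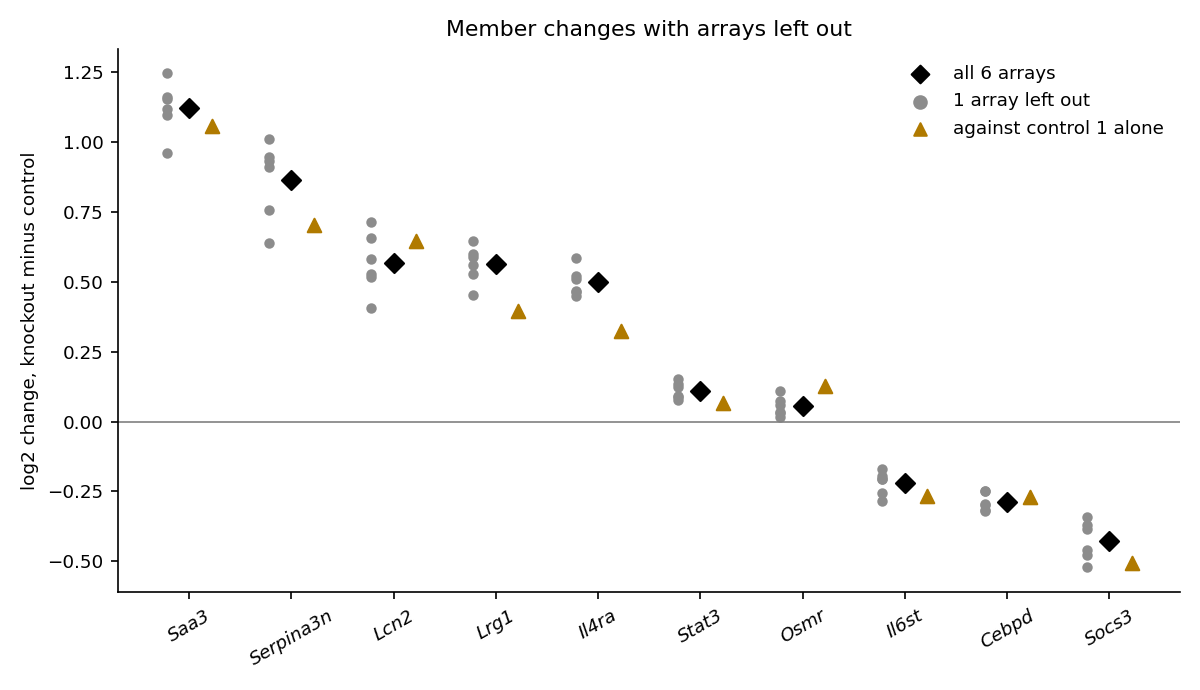
Log2 change, knockout minus control (vertical axis), of each member with all 6 arrays (black diamonds), with 1 array left out in turn (grey points) and against control 1 alone (brown triangles). No point crosses 0, which leaving out arrays could bring about only for Stat3 and Osmr, whose groups overlap. The triangles lie nearer 0 than the diamonds for Lrg1 (0.39 and 0.56) and Il4ra (0.33 and 0.50).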

How the data were processed

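Expression was measured on 6 Affymetrix Mouse Gene 2.0 ST arrays, 1 colour, after RNA amplification, per the labels. The deposited log2 values came from RMA in oligo (background correction, quantile normalization between arrays, summary per probe set), per the submitters' processing notes, with versions not given in the sources used here. Arrays have no read depth, and their number limits the precision.

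The 23521 of 41345 probe sets with a single gene symbol were used, and 1814 with several symbols and 16010 without any were left out. The brightest probe set stood for each gene. Genes with a mean above the 90th percentile of 1428 receptor genes were tested with limma 3.58.1 in R 4.3.3 (lmFit, eBayes with trend, two-sided, Benjamini-Hochberg over 15284 genes, threshold 0.05). Promoter windows were from RefSeq. Members and lists were chosen with earlier results of these data known. Of each role list, the called genes or the 2 with the smallest p were named, and others were added after their values were seen. On simulated data for this comparison (15284 genes), 22% of changes of 0.5 and 74.4% of changes of 1 on the log2 scale were recovered, with 3.45% false calls. Alternatives covered the filter, normalization, probe sets, variance model, array weights, replicate block, threshold and arrays left out. Plots used matplotlib 3.10.9 in Python 3.11.15.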

Additional observations from a re-analysis of the deposited data

How the results depend on the processing

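Of the 4 members called, between 1 and 3 passed with single arrays left out, 1 when the variance trend was dropped and 0 with control 1 as the only control (6 at an unadjusted p of 0.05 in limma). At an adjusted p of 0.1, 5 members passed, 4 higher and 1, Socs3, lower. Of the pathway genes outside the members, 5 passed, between 3 and 5 with single arrays left out, 3 without the trend, 8 under the stricter background level, 13 at an adjusted p of 0.1 and 1 against control 1 alone. Over all genes 399 passed (173 higher, 226 lower), between 91 and 379 with single arrays left out (379 without control 1, 91 without knockout 3), 139 without the trend, 768 at an adjusted p of 0.1 and 52 against control 1 alone. Without the background filter, with robust eBayes or with array weights, 3 members passed, Serpina3n being lost. Under the stricter background level 3 passed, Saa3 being untested there. In this family of alternatives no member changed sign, though leaving out arrays could have changed it only for Stat3 and Osmr. The causes were not tested. Same-numbered arrays did not deviate together over all genes tested (correlations -0.020, -0.0077 and 0.039). With 3 arrays a group this cannot exclude a pairing, and the labels name none. With the replicate block 4 members, 7 pathway genes and 394 genes passed. With 3 arrays a group, the test on simulated data recovered 22% of changes of 0.5 on the log2 scale. That share was not worked out for single members. Socs3, Il6st, Cebpd, Stat3 and Osmr had standard errors from 0.067 (Osmr) to 0.103 (Socs3), below the median of 0.146. For them the intervals of the fit are the closer guide, from -0.064 to 0.29 for Stat3 and from -0.096 to 0.20 for Osmr. Failing to pass does not show that a member was unchanged.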

Other observations

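Within the pathway lists, close relatives had unlike values. Mt1, the neighbouring metallothionein gene, was at 7.64, 8.12 and 8.05 on the knockout arrays and at 8.01, 8.09 and 7.28 on the control arrays (0.15 ± 0.22, adjusted p = 0.798), beside the rise of Mt2, and the difference between the 2 genes was not tested. Cxcl1, a neutrophil-attracting chemokine gene, was at 5.80, 5.59 and 5.39 on the knockout arrays and at 7.43, 6.31 and 6.61 on the control arrays. All knockout arrays lay below all controls, and the change of -1.19 ± 0.27 did not pass (adjusted p = 0.0537). It passed in 5 of 16 alternative settings, with adjusted p-values from 0.0293 to 0.181 over all of them. Control 1, the control with the least enterocyte RNA, was the highest of the 6 arrays for Cxcl1. It also had the highest array mean of the mural, fibroblast and blood endothelial lists. The cell source of the Cxcl1 RNA was not tested.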
